A study of Mus musculus with 16 samples.

Results

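The interferon regulatory factors (IRFs) are described here as 8 genes, Irf1, Irf2, Irf3, Irf4, Irf5, Irf7, Irf8 and Irf9, taken by symbol from both tables of normalized counts. All 8 were listed among 15080 genes in tumor and among 13344 genes in stroma. All of them passed the filter on low values (a mean normalized count over 10) in both tables.

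IRFs are transcription factors that share a DNA-binding domain and recognize GAAA repeats, the core of the interferon-stimulated response element (ISRE). IRF3, IRF5 and IRF7 carry signals from pattern receptors to the interferon genes, IRF9 joins STAT proteins downstream of the interferon receptor, and IRF1 and IRF2 bind the same sites as an activator and, mostly, a repressor. IRF4 and IRF8 pair with Ets factors such as PU.1 and act in B-cell and myeloid development, where either of them can carry pre-B cells past the stage of the pre-B receptor.

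RNA was sequenced from B-cell acute lymphoblastic leukemia (B-ALL) cells and from other marrow cells of untreated mice, 8 days after tail vein injection of 500000 leukemic cells. The leukemic cells came from a male BCR-ABL+, Arf-/- line that carried mCherry, and the same line was injected in every mouse, so genotype refers to the host. The hosts were C57BL/6J mice, wild type (WT) or with a germline loss of Il6 (IL-6 KO), obtained at 6 to 8 weeks of age, and both sexes were used in the study. After lysis of red cells, mCherry+ cells (tumor) and mCherry- cells (stroma) were sorted, with 4 libraries for each of WT tumor, IL-6 KO tumor, WT stroma and IL-6 KO stroma. Stroma here means every mCherry- marrow cell, hematopoietic cells included. The sources used here do not state which mouse gave each library, so p-values measure the spread between libraries. Il6 itself was not analysed here, so the loss of the gene in the hosts was not checked on RNA.

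The tumor libraries had the markers of a pre-B cell. Normalized counts of 12 B-lineage markers summed to 144996 to 150242 in WT tumor and 157822 to 168088 in IL-6 KO tumor, led by Igll1, a surrogate light chain of the pre-B receptor, and of 12 T and NK cell markers 4 were listed, led by Klrb1c. Myeloid markers were present in the tumor sort, and their sums differed by genotype. Neutrophil markers, all 13 listed and led by Ngp, summed to 4913 to 5642 in WT and 7822 to 18919 in IL-6 KO tumor. The 14 monocyte and macrophage markers, led by Lyz2, summed to 2297 to 2692 and 3372 to 7256. Neither sum overlapped between genotypes. Of the neutrophil markers, 10 of 13 (76.9%) passed the test as higher, against 10.6% of all tumor genes. Of the monocyte and macrophage markers, 5 of 14 (35.7%) did. In this second list 8 estimates were higher and 6 lower in IL-6 KO tumor, and Lyz2 alone averaged 2743 over the tumor libraries. Dendritic cell markers were few, with 6 of 10 plasmacytoid and 4 of 10 conventional markers listed, Siglech, Xcr1 and Clec9a not among them, and their sums overlapped between genotypes (5427 to 7387 and 144 to 346). In stroma, B-lineage markers summed to 611 to 1722, and erythroid markers, led by Hbb-bs, to 87533 to 417728 in spite of the red cell lysis. Mesenchymal and endothelial markers were few in stroma, where 6 of 10 were listed, Cxcl12, Lepr and Cdh5 not among them. Neutrophil markers in stroma summed to 8036 to 15464 in WT and 8283 to 33886 in IL-6 KO libraries, overlapping between genotypes. The stroma libraries also differed in their makeup. Protein-coding genes held 21% to 38.5% of the sum of normalized counts in WT stroma and 8% to 16.1% in IL-6 KO stroma, against 67.2% to 75.3% in WT tumor and 56.9% to 65.7% in IL-6 KO tumor, with the small RNA gene Rn7s1 among the largest in each table. The part of this makeup in the values of the Irf genes was not tested. In bulk samples of this kind, fewer cells of a type and less RNA per cell cannot be told apart.

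Expression of the family in leukemic cells was compared between WT and IL-6 KO hosts first. Of the 8 genes, 3 differed at a limma adjusted p under 0.05 over all genes tested, Irf7 and Irf2 lower and Irf8 higher in IL-6 KO tumor. The share of all tumor genes called was 19.8% (10.6% higher and 9.16% lower), and 3 of 8 is 37.5%. Groups did not overlap for the same 3 genes, against 25.6% of all genes. An unadjusted p under 0.05 was found for 4 of the 8, against 35.1% of all genes. The median log2 fold change was -0.14 over the 8 genes and -0.01 over all genes tested.

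**Figure D1:**
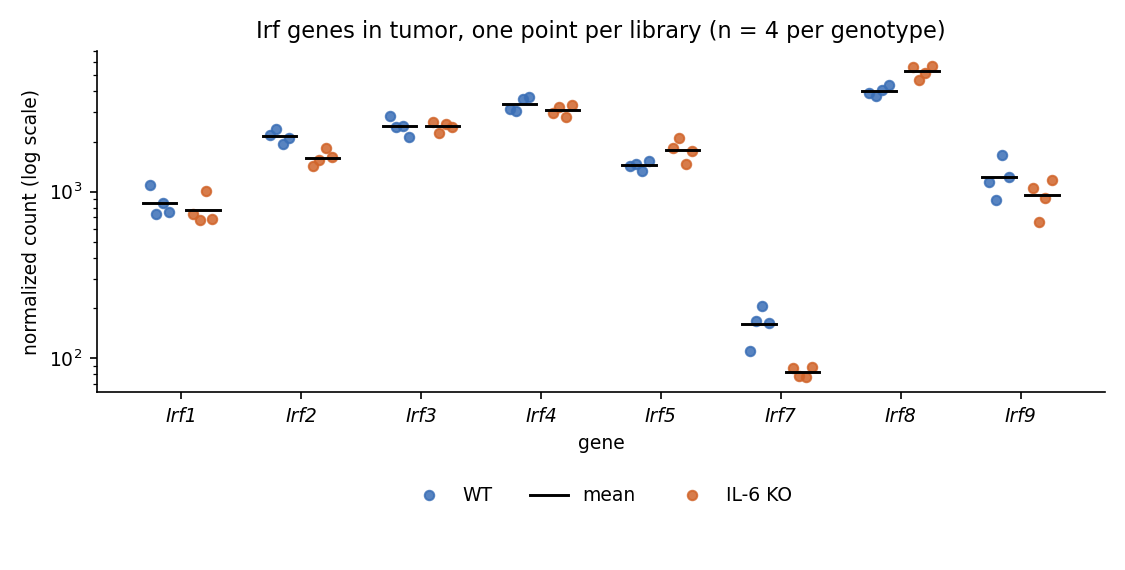
Normalized counts (log axis) of the 8 Irf genes in WT tumor (blue) and IL-6 KO tumor (orange), 4 libraries each. Points are libraries and black bars are means. The groups are separate for Irf2, Irf7 and Irf8, and Irf7 is the lowest gene in both groups.

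Irf7, which amplifies type I interferon production and is itself interferon-induced, was lower in leukemic cells of IL-6 KO hosts. Its normalized counts were 111, 167, 206 and 163 in the 4 WT libraries and 88, 78.5, 77.4 and 88.1 in the 4 IL-6 KO libraries. Every IL-6 KO library was below every WT library, and the WT libraries were the more spread. Mean counts of 161 in WT (SD 39.1, n = 4) and 83 in IL-6 KO libraries (SD 5.84, n = 4) differed by a log2 fold change of -0.92 by limma (SE 0.20, 95% interval -1.36 to -0.48, adjusted p = 0.0128), or 1.89-fold lower. Irf7 lies on chromosome 7 (141262706 to 141266481, minus strand, GRCm38) and overlaps Phrf1 on the plus strand. Phrf1 had normalized counts of 4454 to 5198 in WT and 5325 to 6166 in IL-6 KO tumor (log2 fold change 0.22, adjusted p = 0.0621), the opposite direction to Irf7. The library kit kept strand, but the strand setting of the quantification was not given in the sources used here, so the Irf7 values may include reads of Phrf1.

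Irf2, the counterpart of Irf1 at its sites, was lower as well. Normalized counts were 2185, 2374, 1926 and 2107 in WT tumor and 1418, 1546, 1833 and 1613 in IL-6 KO tumor. The highest IL-6 KO library, the third, lay just under the lowest WT library. WT libraries averaged 2148 (SD 186, n = 4) and IL-6 KO libraries 1602 (SD 174, n = 4), which is -0.42 on the log2 scale (SE 0.10, 95% interval -0.64 to -0.21, adjusted p = 0.0160), a 1.34-fold lower level. Irf2 lies on chromosome 8 (46739732 to 46847458, plus strand), and antisense transcripts lie within it.

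Irf8, which with IRF4 directs pre-B cells and which also directs monocyte and dendritic cell development, was higher. In WT tumor it had normalized counts of 3902, 3752, 4104 and 4382, and in IL-6 KO tumor of 5567, 4684, 5169 and 5658. The lowest IL-6 KO library, the second, was above the highest WT library. Averages were 4035 (SD 273, n = 4) and 5269 (SD 445, n = 4), and IL-6 KO exceeded WT by 0.38 on the log2 scale (SE 0.08, 95% interval 0.20 to 0.56, adjusted p = 0.0115), or 1.3-fold higher. The IL-6 KO library with the fewest myeloid marker counts, the third (7822 for neutrophil and 3372 for monocyte and macrophage markers), had 5169 for Irf8. The second, with the most neutrophil counts (18919), had the lowest Irf8 of its group, and the first, with the most monocyte and macrophage counts (7256), had 5567, next to the highest. The part of myeloid cells in the Irf8 difference was not tested.

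Irf8 lies on chromosome 8 (120736358 to 120756694, plus strand) and overlaps Gm20388, a gene on the same strand, so that the quantification could split reads between them. Gm20388, which was picked after its values were seen, had 1326 to 1630 in WT and 1434 to 1737 in IL-6 KO tumor (log2 fold change 0.01, adjusted p = 0.938). Summed with it, Irf8 ran from 5228 to 6012 in WT and from 6421 to 7120 in IL-6 KO tumor, still without overlap, with a log2 fold change of 0.29.

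The 250 bases before the RefSeq transcription starts of Irf7, Irf2 and Irf8 (GRCm38.p6) are shown because these 3 genes passed the test, and that of Irf1 because it holds a match to a site known to bind STAT dimers. All 8 genes had a RefSeq window, 11 windows in all. Capitals mark matches to the ISRE (GAAA, any 2 bases, GAAA), the Ets-IRF composite site (GGAA, any 2 bases, GAAA, which overlaps the ISRE in Irf2) and the gamma-activated site (GAS: TTC, any 3 bases, GAA), searched on both strands from 250 bases before to 50 bases after the start.
Irf7, chr7:141266425-141266674, minus strand: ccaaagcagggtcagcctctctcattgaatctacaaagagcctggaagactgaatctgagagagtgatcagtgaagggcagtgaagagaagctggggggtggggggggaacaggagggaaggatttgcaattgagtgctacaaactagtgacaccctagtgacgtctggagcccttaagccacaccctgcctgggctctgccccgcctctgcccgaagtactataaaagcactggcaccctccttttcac
Irf2, chr8:46739495-46739744, plus strand: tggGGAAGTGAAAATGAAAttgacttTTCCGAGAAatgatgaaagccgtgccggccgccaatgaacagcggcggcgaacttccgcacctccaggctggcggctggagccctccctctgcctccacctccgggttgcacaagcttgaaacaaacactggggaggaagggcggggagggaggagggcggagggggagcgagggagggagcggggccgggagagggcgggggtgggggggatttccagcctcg
Irf8, chr8:120736108-120736357, plus strand: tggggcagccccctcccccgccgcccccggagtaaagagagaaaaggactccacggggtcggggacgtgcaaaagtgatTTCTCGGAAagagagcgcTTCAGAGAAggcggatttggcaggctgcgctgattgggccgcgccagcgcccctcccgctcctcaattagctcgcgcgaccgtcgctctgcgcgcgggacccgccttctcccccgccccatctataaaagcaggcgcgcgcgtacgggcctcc
Irf1, chr11:53769764-53770013, plus strand: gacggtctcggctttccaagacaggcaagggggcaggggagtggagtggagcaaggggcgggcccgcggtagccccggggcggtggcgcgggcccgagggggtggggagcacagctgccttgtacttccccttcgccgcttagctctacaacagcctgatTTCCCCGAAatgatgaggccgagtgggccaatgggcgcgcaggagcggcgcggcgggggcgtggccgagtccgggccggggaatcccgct
Irf2 held an ISRE at -241, a composite site at -247 and a GAS at -224 from the start, Irf8 held a GAS at -171 and another at -153, and Irf1 held a GAS at -90. Irf7 and the windows of Irf3, Irf4, Irf5 and Irf9 held none of these letters. Among 32851 promoter windows of 300 bases, 3.44% held the ISRE, 2.72% the composite site and 8.30% the GAS. These are matches of letters and not shown to be sites.

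Irf5 and Irf4 give the other members with a known part in B cells. Irf5, which acts downstream of Toll-like receptors, showed 1421, 1473, 1323 and 1525 in WT tumor and 1836, 2089, 1472 and 1754 in IL-6 KO tumor. Of the IL-6 KO libraries, 3 of 4 were above every WT library, and the third, at 1472, lay within the WT range. The log2 fold change was 0.31 (SE 0.11, 95% interval 0.07 to 0.55), with an unadjusted limma p of 0.0170 and an adjusted p of 0.0708. Without the third IL-6 KO library it was 0.40 (limma adjusted p = 0.0245), so that the call changed with 1 library. The call also changed with the processing of all libraries. With array weights the log2 fold change was 0.28 (limma adjusted p = 0.0401). With trends of GC content and transcript length removed it was 0.12 (limma adjusted p = 0.455). Irf4, the partner of Irf8 in pre-B cells and the factor of plasma cells, averaged 3371 in WT tumor (SD 312, n = 4) and 3074 in tumor of IL-6 KO hosts (SD 234, n = 4). This difference did not pass the test (log2 fold change -0.13, 95% interval -0.33 to 0.06, adjusted p = 0.308).

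Irf8 was therefore set beside Irf4 within each library, per transcript length. The log2 ratio of Irf8 to Irf4 was 0.76, 0.75, 0.65 and 0.71 in WT tumor and 1.36, 1.00, 1.34 and 1.23 in IL-6 KO tumor. All 4 IL-6 KO libraries were above all 4 WT libraries, and the WT libraries lay close together (mean 0.72, SD 0.05, against mean 1.23, SD 0.17, n = 4 each). The ratio carries the Irf8 difference that was already called and was given no test of its own.

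Irf9, Irf1 and Irf3 did not pass the test in tumor. Irf9, the DNA-binding subunit of ISGF3, ran from 886 to 1657 in WT and from 655 to 1180 in IL-6 KO tumor (log2 fold change -0.36, 95% interval -0.84 to 0.11, adjusted p = 0.254). Irf1, an interferon-gamma target and activator of antigen presentation genes, ran from 731 to 1094 in WT and from 673 to 1009 in IL-6 KO tumor (log2 fold change -0.15, 95% interval -0.52 to 0.21, adjusted p = 0.546). Irf3, the constitutive factor that TBK1 activates, averaged 2480 in WT (SD 302, n = 4) and 2470 in IL-6 KO libraries (SD 165, n = 4), with a 95% interval of the log2 fold change from -0.22 to 0.22. The intervals leave room for changes of up to these sizes. On GRCm38, Irf9 lies on chromosome 14, Irf1 on chromosome 11 (53770014 to 53778374), Irf3 on chromosome 7 (44997648 to 45002848), Irf4 on chromosome 13 (30749226 to 30766976) and Irf5 on chromosome 6 (29526625 to 29541871), all on the plus strand. Irf1, Irf3 and Irf5 overlap genes of the opposite strand (Gm17334, Bcl2l12 and Tnpo3), and Irf4 overlaps none.

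In the bone marrow stroma, the same comparison called none of the 8 genes (limma, adjusted p under 0.05), and 1 had an unadjusted p under 0.05, against 0.00820% and 9.15% of all genes tested in stroma. The libraries were less alike than in tumor, with a median residual SD of 0.857 on the log2 scale against 0.212. Group ranges did not overlap for 1 of the 8, Irf9, against 5.79% of all genes. The median log2 fold change was -0.09, against -0.01 over all genes.

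**Figure D2:**
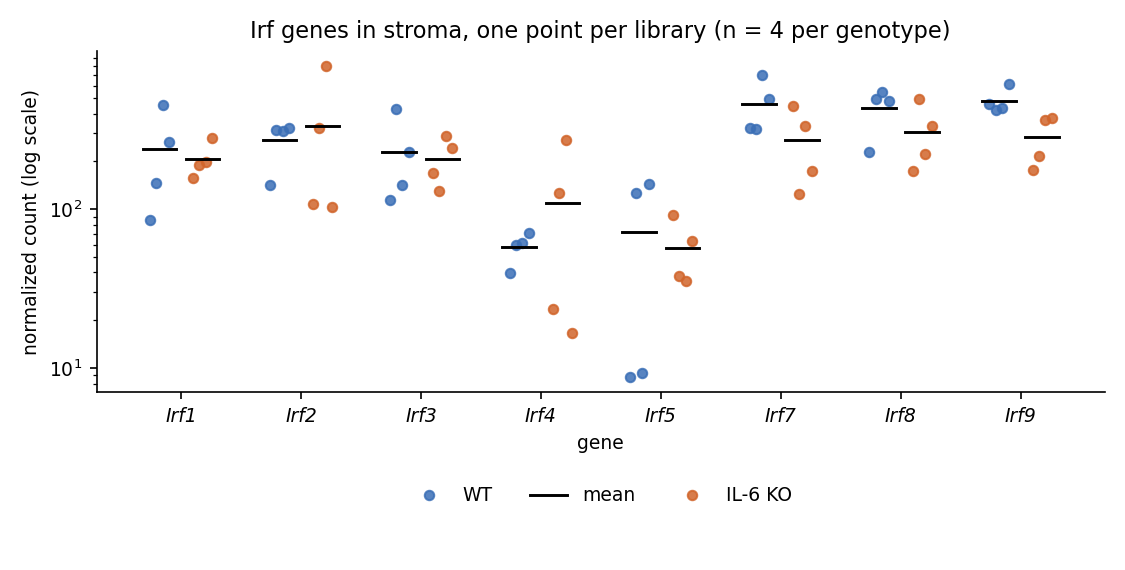
Normalized counts (log axis) of the 8 Irf genes in WT stroma (blue) and IL-6 KO stroma (orange), 4 libraries each. Points are libraries and black bars are means. The groups are separate for Irf9 alone, and points of a group can lie far apart, as for Irf5 in WT (8.82 to 145).

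Irf9 had normalized counts of 457, 422, 435 and 617 in the WT libraries and of 177, 216, 365 and 373 in those of IL-6 KO stroma. All 4 IL-6 KO libraries were below all 4 WT libraries, and the third and the fourth were near the WT range. Averages were 483 for WT (SD 90.9, n = 4) and 283 for IL-6 KO (SD 101, n = 4), and the limma difference on the log2 scale was -0.83 (SE 0.35, 95% interval -1.59 to -0.06, adjusted p = 0.516), so Irf9 was not called. Its unadjusted p in that fit was 0.0371. Irf9 shares its strand and part of its sequence range on chromosome 14 (55603571 to 55610030) with Rnf31. Rnf31, also looked up after the fact, ran from 151 to 1008 in WT and from 208 to 1314 in IL-6 KO stroma, and the sums of Irf9 and Rnf31 overlapped between genotypes (608 to 1443 and 386 to 1678).

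Irf7 in stroma had 326, 321, 701 and 492 in WT and 448, 125, 336 and 174 in IL-6 KO libraries. The groups overlapped through the first and the third IL-6 KO libraries. Its log2 fold change of -0.86 (SE 0.45, 95% interval -1.84 to 0.12, adjusted p = 0.583) was close in size to the -0.92 of tumor, with an error over 2 times as large. Irf8 had 228, 492, 545 and 479 in WT and 173, 494, 223 and 333 in IL-6 KO stroma. These overlapped, and the log2 fold change of -0.55 (SE 0.42, adjusted p = 0.712) was not called.

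Spread within a group was wide for the other members in stroma. Irf2 ran from 142 to 324 in WT and from 104 to 794 in IL-6 KO stroma, Irf4 from 39.6 to 70.7 and from 16.6 to 271, and Irf5 from 8.82 to 145 and from 35.5 to 91.6. The third IL-6 KO library was the highest for both Irf2 and Irf4, and 2 WT libraries were under 10 for Irf5. The third IL-6 KO library also had the highest erythroid marker sum in stroma (417728) and the lowest neutrophil marker sum of its group (8283). The part of this makeup in its Irf2 and Irf4 values was not tested. Irf1 (85.1 to 454 in WT, 157 to 279 in IL-6 KO) and Irf3 (114 to 429.9 and 129.8 to 289) had log2 fold changes of 0.03 (95% interval -1.04 to 1.11) and -0.01 (95% interval -1.03 to 1.01), so a change of 2-fold either way lay within the interval.

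**Figure D3:**
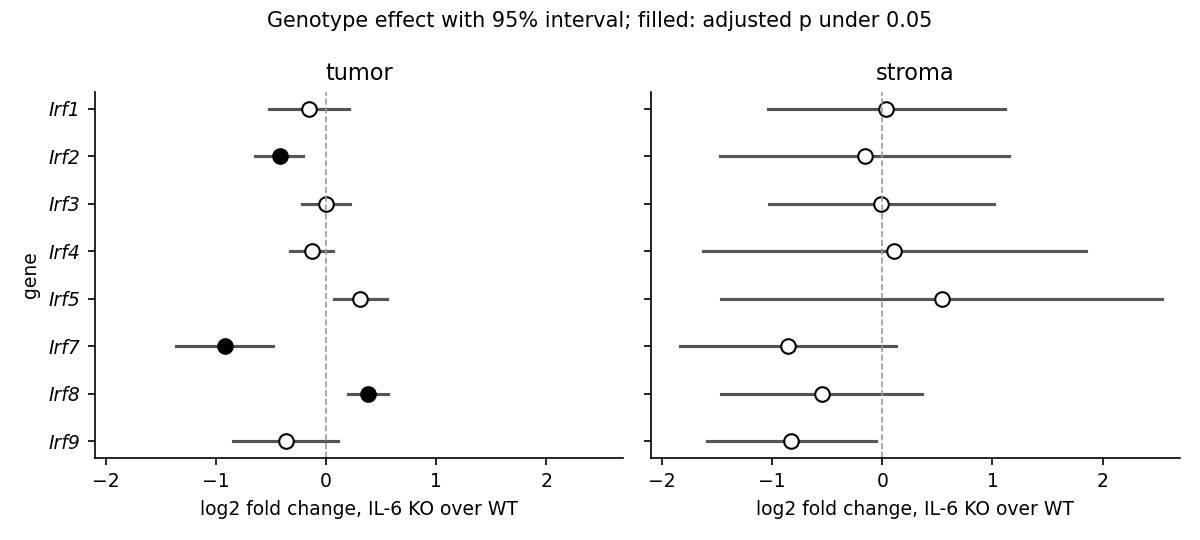
Log2 fold change of IL-6 KO over WT (horizontal axis) with its 95% interval for the 8 Irf genes (vertical axis), in tumor and in stroma. Filled points passed limma's adjusted p of 0.05. The 3 filled points, Irf2, Irf7 and Irf8, are all in tumor, and the intervals in stroma are wider.

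The genotype effects of the compartments were compared in 1 fit over all 16 libraries, as stroma minus tumor. The fit treated the libraries as independent. Tumor and stroma libraries may share a mouse, and no alternative paired them. None of the 8 differences was called (limma), and 1 had an unadjusted p under 0.05, against 0.00919% and 8.76% of the 10887 genes tested. That gene was Irf8, with 0.38 in tumor and -0.55 in stroma, a difference of -0.93 (SE 0.40, unadjusted p = 0.0321, adjusted p = 0.512). For Irf7 the difference was 0.06 (SE 0.68) and for Irf2 0.26 (SE 0.58), each SE being larger than the difference.

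Which members made up the family's expression was described per transcript length, scaled to a sum of 1000000 over the protein-coding genes of a library (longest transcript of each gene). In WT tumor the order was Irf3 (92), Irf8 (87.8), Irf4 (53.5), Irf5 (48.3), Irf2 (40.9), Irf1 (30.3), Irf9 (24) and Irf7 (3.78). Ranges over the 4 libraries overlapped for the neighbors Irf3 and Irf8, Irf4 and Irf5, and Irf1 and Irf9, and not for the others. In IL-6 KO tumor Irf8 came first (95.7 to 114 over libraries) and no longer overlapped Irf3 (78.3 to 90.2). With the longest coding transcript, Irf8 already came before Irf3 in WT tumor (means of 98.2 and 84.5), so this change of order depended on the length. Irf7 was last in both genotypes, at 0.991% of the family's sum in WT and 0.491% in IL-6 KO tumor.

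Stroma had a different order. Irf7 led in WT stroma (95.7), followed by Irf8 (84.1), Irf9 (83.6), Irf1 (74.9), Irf3 (74.6), Irf2 (45.9), Irf5 (20.9) and Irf4 (8.11), and every neighbor's range overlapped the next. Irf4 was last in both genotypes, at 1.7% of the family's sum in WT and 3.55% in IL-6 KO stroma, against 14% and 12.4% in tumor. Irf7 made up 19.8% and 15.1% of the sum in stroma. The tables were normalized separately, so levels across compartments are set side by side without a test. By group mean, Irf7 was last in tumor and Irf4 last in stroma with each of 3 choices of transcript length. The leading gene changed with that choice, Irf2 coming first in WT tumor and in both stroma groups with the mean length of coding transcripts.

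**Figure D4:**
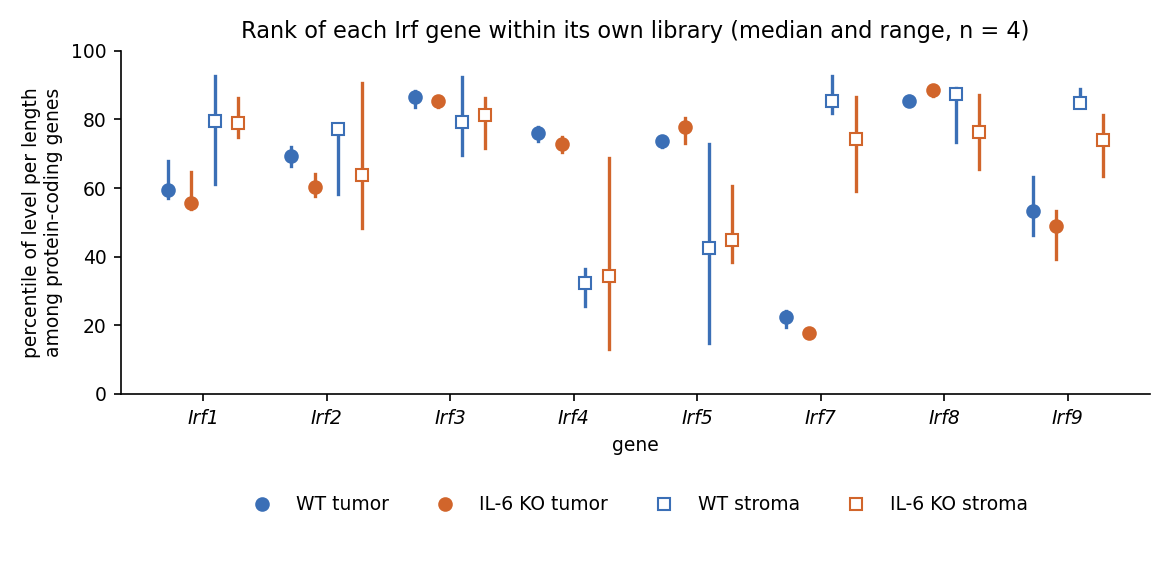
Percentile of each Irf gene's level per length among the protein-coding genes of its own library (vertical axis, 0 to 100), for WT (blue) and IL-6 KO (orange) in tumor (filled circles) and stroma (open squares). Points are medians and lines the range of 4 libraries. Irf7 sits near the 20th percentile in tumor and above the 50th in stroma, and Irf4 sits above the 70th in tumor, with stroma medians of 32.4 and 34.5.

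By rank within a library, Irf7 had a median percentile of 22.5 in WT tumor and 17.8 in IL-6 KO tumor, and of 85.5 and 74.4 in stroma. The tumor ranges of 19.4 to 24.2 and 16.5 to 18.1 did not reach the stroma ranges, which started at 59. For Irf4 the medians were 76 and 72.9 in tumor and 32.4 and 34.5 in stroma, though 1 IL-6 KO stroma library reached 68.8. Irf3 stayed within 69.7 and 92.4 in all 16 libraries.

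The genes that act before and after the IRFs were followed through lists of pathway genes in the same fits. Among 38 type I interferon-induced genes tested in tumor, 12 were lower and 0 higher in IL-6 KO hosts (31.6%, against 9.16% of all genes lower), with a median log2 fold change of -0.46. Rtp4, a chaperone of receptors at the cell surface, fell from 234 to 77.9 (log2 fold change -1.55, adjusted p = 0.00379), and Eif2ak2, the kinase PKR, from 1506 to 988 (-0.61, adjusted p = 0.00632). The RNA sensors Ddx58 (RIG-I, -0.87, adjusted p = 0.00554) and Ifih1 (MDA5, -0.59, adjusted p = 0.0227) were lower too. So were Dtx3l (-0.37, adjusted p = 0.0102) and Parp14 (-0.46, adjusted p = 0.0141). The count of 12 lower genes was 7 with quantile normalization, 16 with array weights and 5 without the first or without the fourth IL-6 KO library.

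By library, the median of these 38 genes relative to the WT mean was -0.05, -0.32, 0.43 and 0.01 on the log2 scale in WT tumor and -0.44, -0.64, -0.55 and -0.38 in IL-6 KO tumor. The third WT library was the highest for these genes, for Irf7 (0.38 above the WT mean) and for Irf9 (0.47). Irf8 and Irf2 were within 0.15 of their WT mean in that library. At the low end the order differed for Irf7. The second WT library, the lowest for these genes (-0.32), had Irf7 at 0.08 and Irf9 at -0.43. The first, the lowest for Irf7 (-0.51), had a median of -0.05 for these genes.

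**Figure D5:**
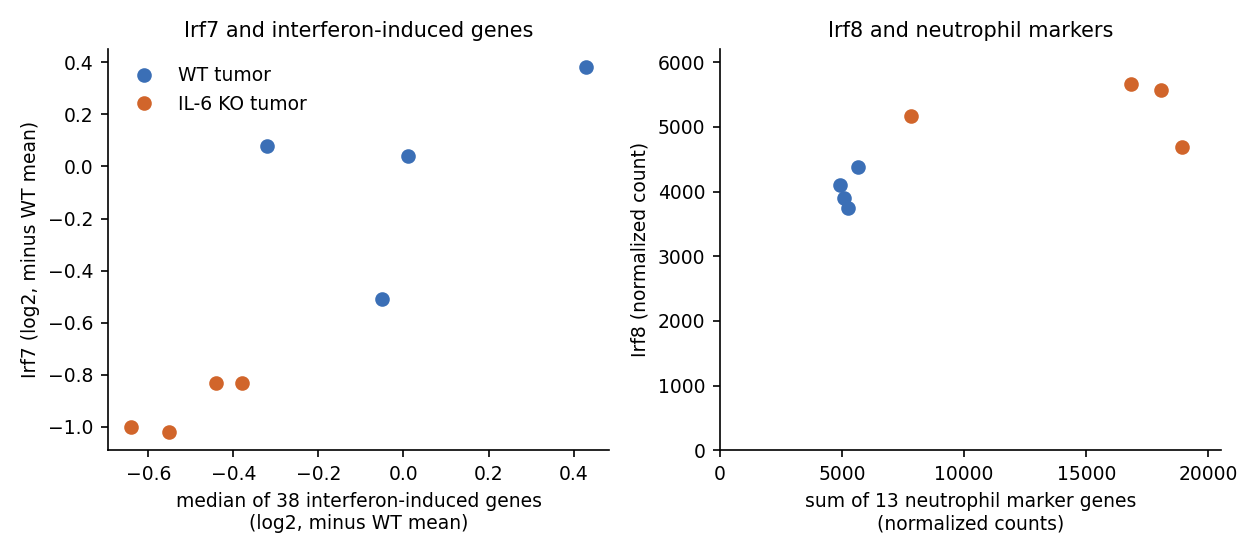
Tumor libraries of WT (blue) and IL-6 KO (orange) hosts, 1 point each. Left, Irf7 (vertical axis) against the median of 38 interferon-induced genes (horizontal axis), both as log2 difference from the WT mean. Right, the normalized count of Irf8 against the sum of 13 neutrophil markers. The 4 IL-6 KO libraries are lowest on both axes at left, and at right the IL-6 KO library at 7822 marker counts has an Irf8 count of 5169.

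Upstream of the IRFs, 22 sensors, adaptors and kinases were tested in tumor, of which 4 were lower and 1 higher (22.7%, near the 19.8% of all tumor genes called). Besides Ddx58 and Ifih1, Tlr7, the endosomal receptor for single-stranded RNA, fell from 161 to 70.8 (log2 fold change -1.12, adjusted p = 0.0117) and Tank, an adaptor of TBK1, from 494 to 359 (-0.46, adjusted p = 0.0194). Myd88, the adaptor of most Toll-like receptors, was higher (0.40, limma adjusted p = 0.0462). Its IL-6 KO libraries had 1417, 1414, 1119 and 1193, and the part of myeloid cells in this difference was not tested.

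Stat2, a partner of IRF9 in ISGF3, averaged 809 in WT (SD 99, n = 4) and 827 in IL-6 KO libraries (SD 80.7, n = 4), with a 95% interval of the log2 fold change from -0.22 to 0.29. Among 11 interferon receptors, Jak kinases and Stats, 3 passed the test in tumor (27.3%, against 19.8% of all tumor genes). Tyk2, a kinase of the type I receptor, rose (0.30, limma adjusted p = 0.0215). So did Ifnlr1, a subunit of the interferon lambda receptor (1.13, limma adjusted p = 0.0350, from 15.3 to 34.9 counts). Ifnlr1 counts were low, at 44, 34.6, 23.2 and 37.8 in the IL-6 KO libraries. Neutrophil marker sums of these libraries were 18056, 18919, 7822 and 16825. The part of myeloid cells in the Ifnlr1 difference was not tested.

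Of 23 interferon-gamma and IRF1-associated genes, 3 rose and 1 fell (17.4%, under the 19.8% of all tumor genes), the latter being B2m, the light chain of MHC class I (9389 to 6818, log2 fold change -0.46, adjusted p = 0.00601). Tapbp, which loads class I molecules, rose from 2647 to 4636 (0.83, adjusted p = 0.00461), with the immunoproteasome subunit Psmb8 (0.29, adjusted p = 0.0213) and the tRNA synthetase Wars (0.24, adjusted p = 0.0495). Of 16 regulators that bind or degrade IRFs, 5 rose and 2 fell (43.8%, against 19.8% of all tumor genes called, 10.6% higher and 9.16% lower). They included the corepressor Irf2bp1 (0.31, adjusted p = 0.0389), which was higher, and the ISG15 protease Usp18 (-0.81, adjusted p = 0.0343), which is also in the interferon-induced list, lower.

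Among 21 factors that work with IRF4 and IRF8, 3 were higher and 2 lower in IL-6 KO tumor (23.8%, near the 19.8% of all tumor genes). The higher ones included Cebpa (16.4 to 77.9 counts, log2 fold change 2.20, adjusted p = 0.00263) and Cebpe (20 to 107, 2.36, adjusted p = 0.0145), factors of granulocyte development, whose counts stood beside the higher neutrophil marker sums given above. Tcf3, the E2A gene of B cells, was higher (0.36, adjusted p = 0.00835), and Ebf1 (-0.30, adjusted p = 0.0254) and Ets1 (-0.27, adjusted p = 0.0383) were lower.

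No member of the 6 lists was called in stroma (limma). The interferon-induced list had 8 of 37 genes with an unadjusted p under 0.05 (against 9.15% of all stroma genes), and 30 of 37 estimates were below 0, with a median log2 fold change of -0.63. Ifit1 had 95.7, 101, 147 and 137 in WT and 8.24, 12.8, 37.2 and 31.8 in IL-6 KO stroma (log2 fold change -2.57, adjusted p = 0.302). Oas3 averaged 1189 in WT (SD 188, n = 4) and 583 in IL-6 KO libraries (SD 219, n = 4), with a log2 fold change of -1.11 (adjusted p = 0.431). Neither overlapped between genotypes, and neither was called.

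Genes whose profile over the 8 libraries of a table lay nearest to a member were named by the root mean square (RMS) difference of their centered log2 values, among 11237 other genes in tumor. Nearest to Irf7 were Cnn1 (0.132), Tm7sf2 (0.152) and Oasl1 (0.165), the last an interferon-induced gene, where Irf7 itself had an RMS of 0.517 around its mean. Nearest to Irf2 were Psmb4 (0.0399), Nptn (0.0512) and Prdx2 (0.0609), and nearest to Irf8 were Cyp4f18 (0.04), Hdac7 (0.0425) and Sh3bgrl3 (0.045). In stroma, where no member was called, Rxrb (0.165), Keap1 (0.168) and Zc3hav1 (0.196) lay nearest to Irf9, among 8076 genes.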

How the data were processed

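RNA of 16 sorted samples (4 libraries per genotype and compartment, from their labels) was sequenced by the authors after rRNA depletion with a directional kit. The authors quantified reads against mm10 with Salmon 1.3.0 and normalized the estimates with DESeq2 1.28.1, as the submitters' processing notes name them. They deposited 1 table of normalized counts per compartment, a scaled signal that is not whole reads. Whole reads could not be recovered, so the depth of each library is unknown and no interval that needs it was computed. The authors' own comparison tables (fold changes and p-values) were not used.

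Values were tested as log2(normalized count + 1) with limma 3.58.1 in R 4.3.3 (variances moderated along a trend with the mean), on 14493 genes in tumor and 12202 in stroma with a mean normalized count over 10. Fold changes are on that scale. Genotype was the only term, tests were two-sided, and p-values were adjusted by Benjamini-Hochberg over all genes tested, with a threshold of 0.05. A 95% interval is that of limma. The difference between compartments was fitted over 16 libraries with variances that differed by compartment. Each fit was tested on simulated data beforehand. Positions and lengths came from GENCODE vM21 (GRCm38), and promoters from RefSeq.

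The 8 genes, the 6 pathway lists and the marker lists were written from general knowledge and chosen with earlier results of these data known. Named besides the 8 genes were Stat2, up to 6 members of each list with the smallest adjusted p (the 2 with the smallest p where none passed), and the 3 nearest profiles with a mean of at least 50. Results for some of these genes are left out. Rn7s1 and the overlapping genes were looked up after values were seen. The alternatives were pseudocounts of 0.5 and 5, other filters, quantile normalization, centring, array weights, removal of trends with GC content and transcript length, a replicate block and each library left out. The length of the longest coding transcript, and list counts under these alternatives, were added after the data were seen. Figures were drawn with matplotlib 3.10.9.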

Additional observations from a re-analysis of the deposited data

Results flagged for a closer look

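Of the 32 groups of 4 libraries checked (8 genes in 4 groups), 1 had a library far from the other three, where chance gives about 1 in 20. Irf2 had a normalized count of 142 in the first WT stroma library and of 311 to 324 in the others, a gap that is 0.927 of the group's range. Without that library the log2 fold change of Irf2 in stroma was -0.45 (adjusted p = 0.899), and it was not called with or without it.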

How the results depend on the processing

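The 3 calls in tumor held in each of 9 alternatives and with each of 8 libraries left out, and none of the 8 genes was called in stroma under the same alternatives. Irf7 ran from -1.12 to -0.76, Irf2 from -0.49 to -0.37 and Irf8 from 0.29 to 0.44 on the log2 scale, and the highest adjusted p by limma was 0.0489, for Irf2 without the first IL-6 KO library. For the difference between compartments, none was called in the 6 alternatives run or with each of 16 libraries left out. Irf5 in tumor passed with array weights (0.28, adjusted p = 0.0401) and without the third IL-6 KO library, and was 0.12 once trends with GC content and transcript length were removed. The level per length of each of the 8 genes in 4 groups was compared under each other transcript length. In 29 of these comparisons it moved by more than the SD. When ranked among all genes with a length, every tumor percentile (16) moved by more than the SD, and no stroma percentile did. The mean percentile of Irf7 went from 22.1 to 32.4 in WT tumor and from 17.6 to 26.9 in IL-6 KO tumor.

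Signs turned for values near 0 or with wide errors. Irf3 in tumor became 0.01 with centring and 0.05 with array weights, Stat2 in tumor -0.06 with GC content and length trends removed, Irf1 in stroma -0.00 with quantile normalization and with array weights, and Irf5 in stroma -0.41 with array weights. With 1 library left out, the log2 fold change ran from -0.07 to 0.07 for Irf3 and from -0.06 to 0.08 for Stat2 in tumor. In stroma it ran from -0.37 to 0.43 for Irf1, -0.75 to 0.23 for Irf2, -0.28 to 0.36 for Irf3, -0.60 to 0.72 for Irf4, -0.10 to 1.20 for Irf5 and -0.07 to 0.41 for Stat2. The difference between compartments ran from -0.22 to 0.58 for Irf1, -0.33 to 0.65 for Irf2, -0.28 to 0.36 for Irf3, -0.47 to 0.85 for Irf4, -0.41 to 0.89 for Irf5 and -0.24 to 0.37 for Irf7.

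Counts over all genes moved more. The 2870 genes called in tumor became 4153 with array weights, 1827 with GC content and length trends removed and 1572 (without the fourth IL-6 KO library) to 3328 (without the second) with 1 library left out. In stroma 1 gene was called, 4 with array weights, 2 with the trends removed and 1 to 3 with a library left out, and for the difference between compartments 1, with 3 under equal weights and 0 to 8 with a library left out. The 12 interferon-induced genes lower in tumor became 7 with quantile normalization, 16 with array weights, 8 with the replicate number as a block and 5 to 13 with a library left out: 6 without the third WT library, 5 without the first or the fourth IL-6 KO library and 7 without the third. Fewer libraries entered those fits.

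The numbers were not taken to pair the WT and IL-6 KO libraries. Deviations of same-numbered WT and IL-6 KO libraries had correlations from -0.0186 to -0.000283 in tumor and from -0.0293 to 0.126 in stroma, and none of these libraries was nearest to its own number. Between stroma and tumor of a genotype the correlations ran from -0.0626 to 0.108, and 3 of 8 same-numbered pairs were best matches. With the replicate number as a block, 2230 genes were called in tumor and the estimates were -0.92 for Irf7 (adjusted p = 0.0345), -0.42 for Irf2 (adjusted p = 0.0465) and 0.38 for Irf8 (adjusted p = 0.0168). The unknown depth of the libraries limits the low counts most, such as those of Irf5 in stroma.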
